A study of Homo sapiens with 2 samples.

Results

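The 50 genes described here encode the proteins that license replication origins, unwind DNA and copy it. They were taken by gene symbol from a table of 19220 symbols. The poly(A) RNA came from H9, an established human T cell lymphoma line labelled wild type, and both groups were grown in the same RPMI medium with serum. One group, of 1 library, was untreated (0 h), and the other, also of 1 library, had been kept for 6 h with 0.05 µM doxorubicin, a topoisomerase II poison of the anthracycline class. The question put by the series is what doxorubicin changes in gene expression. No value has a replicate, so there is no test between the conditions, and library and condition cannot be told apart. All 50 symbols were found, and all 50 had at least 100 counts summed over both libraries, the minimum at which a gene was treated as measured.

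A human replication origin is licensed when the origin recognition complex, CDC6 and CDT1 load the ring of MCM2 to MCM7 onto DNA. At the start of S phase the kinases CDC7 and CDK, with MCM10 and other firing factors, join CDC45 and GINS to that ring and make the active helicase. DNA polymerase alpha-primase then lays down primers, RFC loads the sliding clamp PCNA, polymerases delta and epsilon extend, and RPA covers the exposed single strand. Many of these genes are textbook targets of E2F transcription factors in dividing cells.

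The untreated library held 33730703 counts and the treated library 50174434. Levels are given as CPM, the usual depth-scaled count, with library sizes set by TMM, a method that takes them from the bulk of the genes. A ratio is treated over untreated on the log2 scale with 0.5 added to each count. Intervals in parentheses are exact 95% Clopper-Pearson limits, or 95% Wald limits for a difference between genes, and cover counting error only. Of the T cell markers checked, 8 of 10 were measured and the list summed to 1276 CPM untreated and 1329 treated. The T cell markers CD2 (0 and 2 counts) and CD7 (8 and 8 counts) were almost absent. Of 5 B cell markers 2 were measured, with a sum of 205.7 and 150.2 CPM, most of it CD79A (6007 and 6628 counts) and the rest mainly CD79B (755 and 1065 counts), while PAX5 had 0 counts in each library, and a count of 0 allows up to 3. Of 5 epithelial and fibroblast markers 2 were measured, chiefly EPCAM (2591 and 3236 counts), and 0 of the 8 myeloid and erythroid markers were measured. The part of such transcripts in the results was not tested.

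As a set the replication genes had ratios centred near 0. ORC1 and MCM2 were higher by the size rule, which asks for at least 1.5-fold with an interval that excludes a ratio of 1. POLE4 and RPA3 were lower, and 46 genes were neither. Among all 11244 measured genes 7.26% were higher and 9.57% lower by the same rule, so 2 and 2 of 50 is no larger a share than the background on either side. The median log2 ratio of the 50 genes was 0.03 (interquartile range -0.19 to 0.22), and that of all measured genes was 0.0066 (-0.28 to 0.27). With scaling by total counts, which shifts every ratio up by 0.07, the rule gave 2 higher and 0 lower, against 9.64% and 7.58% of all genes.

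A smaller limit, 0.32 on the log2 scale, took in 9 genes on the higher side and 7 on the lower side, beside 20.4% and 21.5% of all measured genes. The higher ones were ORC1, MCM2, MCM7, POLE, MCM4, RFC1, PRIM1, MCM6 and TIMELESS. The lower ones were POLE4, RPA3, GMNN, POLD4, GINS3, PCNA and RFC3. With total counts the same limit gave 12 higher and 3 lower, beside 25.7% and 17.7% of all genes.

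**Figure D1:**
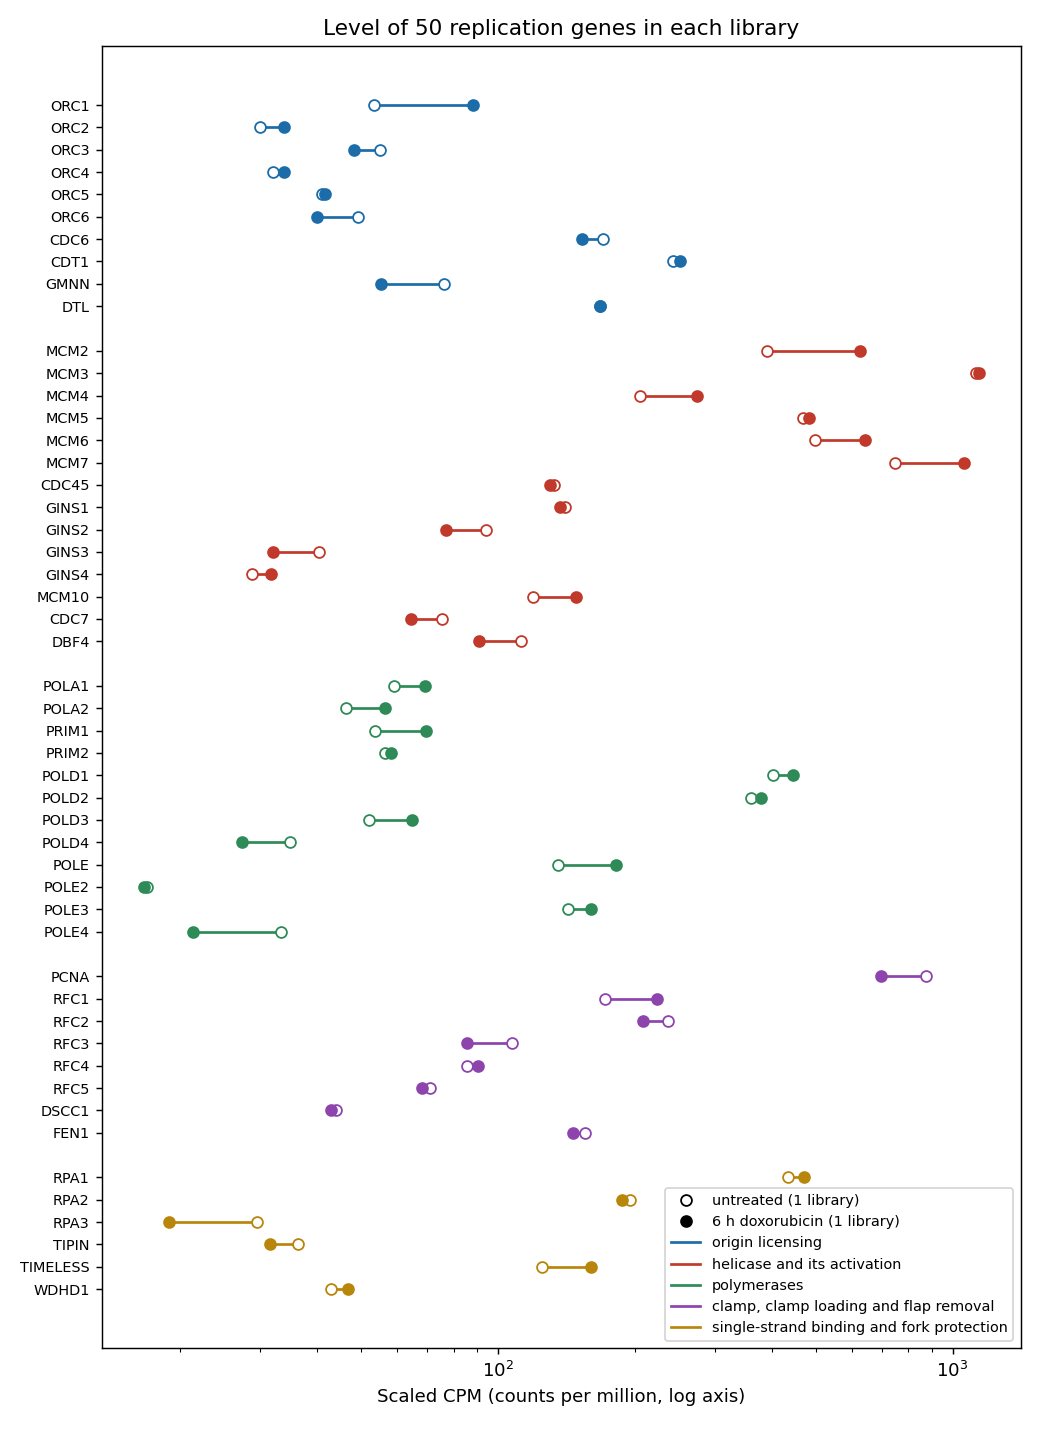
Level of each of the 50 genes in the untreated library (open circle) and after 6 h of doxorubicin (filled circle), in scaled CPM on a log axis, grouped by role, with 1 library per condition. The circles lie far apart for ORC1, MCM2, POLE4 and RPA3, and close together for genes such as DTL (167.9 and 167.5 CPM).

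In the origin licensing group ORC1 stood apart from the other genes. ORC1 is the largest subunit of the origin recognition complex and an ATPase whose level changes over the cell cycle. It had 1760 counts (53.4 CPM) untreated and 4527 counts (88.1 CPM) treated, which is 1.65-fold higher (1.56 to 1.74). That placed it at the 96.2 percentile of all ratios, the highest of the 50 genes. Adjusted for length and GC it was at 0.52, which is not past the size rule. The other ORC subunits had smaller ratios, on both sides of a ratio of 1. ORC2 went from 29.9 to 33.8 CPM, a log2 ratio of 0.17 (0.06 to 0.29), and ORC4 and ORC5 had intervals that included a ratio of 1. Other genes also hold 18.0% of the sampled 50-base stretches of ORC4. ORC3 had 55.1 CPM untreated against 48.3 treated, a log2 ratio of -0.19 (-0.28 to -0.10). ORC6, the smallest subunit, had 49.3 and 40.0 CPM, a log2 ratio of -0.30 (-0.40 to -0.21). As a share of all ORC counts, which no scaling can move, ORC1 made up 20.5% (19.6 to 21.4) untreated and 30.9% (30.1 to 31.6) treated. ORC6 made up 18.9% (18.1 to 19.8) and then 14.0% (13.4 to 14.6). The shares are not adjusted for length. Adjusted for length and GC, ORC6 was at -0.07. The spread between the ORC subunits was then 0.63 on the log2 scale, in place of 1.02.

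The loading factors were near a ratio of 1. CDT1, which brings the MCM ring to the origin, had 8017 counts (243.3 CPM) untreated and 12897 counts (251.1 CPM) treated, a log2 ratio of 0.045 (0.0047 to 0.09). CDC6, the ATPase that works with ORC in loading, had 169.9 and 152.8 CPM, a log2 ratio of -0.15 (-0.20 to -0.10). DTL, the substrate receptor of the CUL4 ligase that marks CDT1 for destruction on DNA-bound PCNA, had 167.9 and 167.5 CPM, a log2 ratio of -0.0037 (-0.05 to 0.045). GMNN encodes geminin, the protein that binds and inhibits CDT1, and it had the lowest ratio of the group. It had 2506 counts (76.1 CPM) untreated and 2838 counts (55.3 CPM) treated, a log2 ratio of -0.46 (-0.54 to -0.38), which is not past the size rule. GMNN had 0.313 counts for each CDT1 count untreated and 0.22 treated, a difference of -0.51 on the log2 scale (-0.59 to -0.42, Wald limits from the counts). Adjusted for length and GC, GMNN was at -0.06 and CDT1 at 0.10. In the 10 genes of this group the median log2 ratio was 0.01, with 1 higher and 0 lower by the size rule.

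In the helicase group the 6 MCM ring genes did not move together. MCM2 had 12890 counts (391.2 CPM) untreated and 32173 counts (626.3 CPM) treated, a log2 ratio of 0.68 (0.65 to 0.71). MCM7 had 746.7 and 1061 CPM, a log2 ratio of 0.51 (0.48 to 0.53). MCM4, with 205.8 and 273.8 CPM, was at 0.41 (0.37 to 0.45), and MCM6, with 497.2 and 643.3 CPM, was at 0.37 (0.34 to 0.40). MCM3 and MCM5, which sit next to each other in the ring, were close to a ratio of 1. MCM3 had 37026 counts (1124 CPM) and 58667 counts (1142 CPM), a log2 ratio of 0.023 (0.0044 to 0.04). MCM5 had 470.0 and 482.5 CPM, a log2 ratio of 0.04 (0.0086 to 0.07).

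The split within the ring does not depend on the scaling, since it can be read from ratios between the genes. Each MCM3 count was matched by 0.348 MCM2 counts untreated and 0.548 treated, a difference of 0.66 on the log2 scale (0.62 to 0.69). The same difference from MCM3 was 0.48 (0.45 to 0.51) for MCM7, 0.39 (0.34 to 0.43) for MCM4 and 0.35 (0.32 to 0.38) for MCM6. It was 0.014 (-0.02 to 0.05) for MCM5, an interval that includes no difference. MCM3 accounted for 32.7% (32.4 to 33.0) of the ring's counts untreated and 27.0% (26.8 to 27.2) treated, and MCM2 for 11.4% (11.2 to 11.6) and 14.8% (14.7 to 15.0). The 6 transcripts are of similar length, from 2957 bases for MCM7 to 4183 for MCM4. Adjusted for length and GC as described further on, MCM2, MCM7, MCM6 and MCM4 were at 0.46, 0.37, 0.24 and 0.15, and MCM3 and MCM5 were at -0.19 and -0.18. Of the sampled stretches of 50 bases, 26.6% in MCM2 and 10.3% in MCM7 also occur in another annotated gene, so their counts are less certain, and the other 4 share none.

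**Figure D2:**
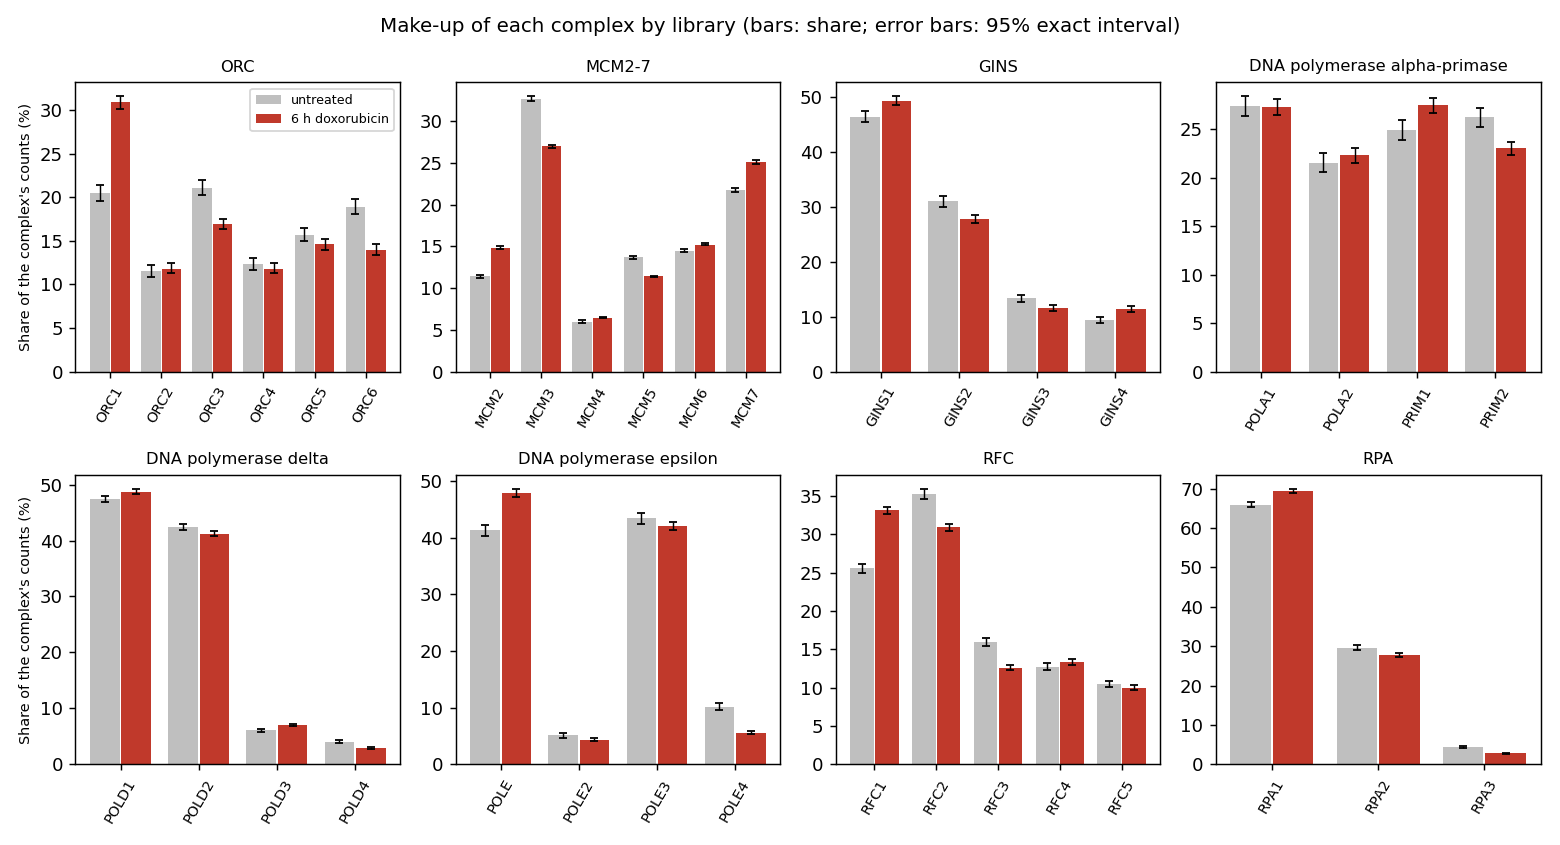
Share of a complex's counts held by each subunit, in percent, untreated (grey) and after 6 h of doxorubicin (red), with exact 95% intervals from counting error in 1 library each. ORC1, MCM2, MCM7, POLE and RFC1 hold a larger share in the treated library, and MCM3, MCM5, ORC6, POLE4 and RPA3 a smaller one.

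The promoter windows were read for E2F-type letters. RefSeq windows on GRCh38.p14, from 250 bases before to 50 bases after the gene start, were at hand for 43 of the 50 genes. They were searched on both strands for TTTCCCGC, TTTGGCGC, TTTCGCGC and TTTGCCGC, where a site and its overlapping match on the other strand count as a pair. A match was found in 18 of 43 windows (41.9%), beside 3.31% of all 35116 windows and 5.67% of the 8869 windows of measured genes. By role a match was in 4 of 10 windows for licensing, 7 of 11 for the helicase, 5 of 11 for the polymerases, 2 of 7 for the clamp group and 0 of 4 for the last group. Of the MCM genes MCM2, MCM3, MCM6 and MCM7 held a match and MCM10 held none, while windows of MCM4 and MCM5 were not analysed here. The stretches below are shown because MCM2, MCM6 and MCM7 were on the higher side and MCM3 near a ratio of 1, and because CDT1, POLE, POLE4 and PCNA span the range of ratios. Each is 30 bases, 5′ to 3′ in the direction of the gene, and capitals mark the match on either strand.
MCM2 at the start, chr3:127598404-127598433, plus strand: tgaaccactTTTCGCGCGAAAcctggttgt
MCM3 distal, chr6:52284898-52284927, minus strand: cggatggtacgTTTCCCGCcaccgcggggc
MCM3 at the start, chr6:52284728-52284757, minus strand: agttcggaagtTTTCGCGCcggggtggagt
MCM6 distal, chr2:135876575-135876604, minus strand: ggctttgcaTTTGGCGCGAAAtccctttcc
MCM6 proximal, chr2:135876513-135876542, minus strand: ttggtcaggTTTGGCGCGAAAtctccagct
MCM7 distal, chr7:100101566-100101595, minus strand: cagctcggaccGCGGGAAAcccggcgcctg
MCM7 near the start, chr7:100101388-100101417, minus strand: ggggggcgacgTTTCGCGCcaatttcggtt
CDT1, chr16:88803743-88803772, plus strand: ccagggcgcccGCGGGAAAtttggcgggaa
POLE, chr12:132687342-132687371, minus strand: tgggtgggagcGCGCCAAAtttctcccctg
POLE4, chr2:74958601-74958630, plus strand: ctccagcccgcGCGGGAAAgggcctgcgcc
PCNA, chr20:5126663-5126692, minus strand: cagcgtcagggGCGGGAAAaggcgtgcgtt

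Matches occur on both sides of the ratio range. MCM3 has the same 8 letters at its start as MCM2 and MCM7 do, and its ratio was lower than theirs. POLE4, with the lowest ratio of all 50 genes, carries a match, while the window of ORC1, with the highest, holds none of these letters. The 18 genes with a match had a median log2 ratio of -0.01 (range -0.64 to 0.68), and the 25 genes without one had 0.07 (-0.46 to 0.72). Their median transcript lengths were 3082.5 and 2296 bases, and adjusted for length and GC the medians were -0.08 and 0.08. A match is a string of letters and not a measured binding site. Other E2F-type strings were not searched for, so a window without a match is not shown to lack one.

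The remaining helicase genes lay on both sides of 0. CDC45, a core part of the active helicase, had 133.1 CPM untreated against 130.4 treated, a log2 ratio of -0.03 (-0.08 to 0.026). Within GINS, the tetramer that completes the helicase, GINS1 was at -0.04 (-0.09 to 0.014) and GINS4, with the fewest counts of the group (946 and 1626), was at 0.14 (0.024 to 0.26). GINS2 had 3096 and 3946 counts, a log2 ratio of -0.29 (-0.36 to -0.22). GINS3 had 1330 counts (40.4 CPM) and 1643 counts (32.0 CPM), a log2 ratio of -0.34 (-0.44 to -0.23). Both subunits of the kinase that fires origins were on the lower side. CDC7, its catalytic subunit, had 75.4 and 64.3 CPM, a log2 ratio of -0.23 (-0.31 to -0.15). DBF4, its activator, had 3707 counts (112.5 CPM) and 4658 counts (90.7 CPM), a log2 ratio of -0.31 (-0.37 to -0.25). MCM10, which helps to activate the loaded helicase, had 119.5 and 148.3 CPM, a log2 ratio of 0.31 (0.26 to 0.37). Stretches that also occur in other genes made up 15.7% of GINS3, 30.9% of GINS4 and 20.6% of DBF4. Over the 14 genes of the group the median log2 ratio was 0.03, with 1 higher and 0 lower by the size rule.

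Among the 12 polymerase genes 9 had ratios above 0, and 1 gene, POLE4, was lower by the size rule. Of all 11244 measured genes, 5700 had ratios above 0. POLE, the catalytic subunit of the polymerase that extends the leading strand, had 4461 counts (135.4 CPM) untreated and 9341 counts (181.8 CPM) treated, a log2 ratio of 0.43 (0.37 to 0.48). POLE4, a small histone-fold subunit of the same enzyme, had 1099 counts (33.4 CPM) and 1097 counts (21.4 CPM), which is 1.56-fold lower (1.44 to 1.70). POLE3, the histone-fold partner of POLE4, was at 0.17 (0.12 to 0.22). POLE2, with the fewest counts of all 50 genes (558 and 856), was at -0.024 (-0.18 to 0.13), so the depth cannot show a change of that size in either direction. There were 4.06 POLE counts for each POLE4 count untreated and 8.52 treated, a difference of 1.07 on the log2 scale (0.94 to 1.20). Adjusted for length and GC the 2 subunits were close, with POLE at -0.11 and POLE4 at -0.19. With the length curve they lay further apart, with POLE at 0.12 and POLE4 at -0.25. Over the whole enzyme the adjustment for length and GC left a spread of 0.65 on the log2 scale, with POLE3 highest at 0.46. POLE4 was not past the size rule with that adjustment, with the length curve or with total counts (-0.58).

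All 4 subunits of DNA polymerase alpha-primase had ratios above 0, though the interval of PRIM2 included a ratio of 1. The catalytic subunit POLA1 had 59.0 CPM untreated against 69.1 treated, a log2 ratio of 0.23 (0.15 to 0.31), and its partner POLA2 was at 0.29 (0.20 to 0.38). PRIM1, the catalytic subunit of primase, had 1765 counts (53.6 CPM) and 3574 counts (69.6 CPM), a log2 ratio of 0.38 (0.29 to 0.46), and the large primase subunit PRIM2 was at 0.05 (-0.04 to 0.13). Under total counts these 4 ratios stay above 0, but POLA1 is at -0.06 after the adjustment for length and GC. That adjustment widened the spread between the 4 subunits from 0.33 to 0.73 on the log2 scale, with PRIM1 highest at 0.67. Stretches that also occur in other genes made up 56.1% of POLA2, 29.6% of PRIM1 and 30.8% of PRIM2, and other genes overlap 35.1% of the exons of POLA2 and 21.6% of those of PRIM1.

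For DNA polymerase delta, which copies the lagging strand, the catalytic subunit POLD1 had the most counts of the polymerase group. It had 13294 counts (403.5 CPM) untreated and 22950 counts (446.8 CPM) treated, a log2 ratio of 0.15 (0.12 to 0.18). POLD2 was at 0.07 (0.04 to 0.10), and POLD3, with 52.0 and 64.7 CPM, was at 0.32 (0.23 to 0.40). POLD4, the smallest subunit, had 1147 counts (34.8 CPM) and 1405 counts (27.4 CPM), a log2 ratio of -0.35 (-0.46 to -0.23). Stretches also found elsewhere made up 68.6% of POLD4 and over 10% of POLD1. The median log2 ratio of the 12 polymerase genes was 0.16, the highest of the 5 role groups, with a range from -0.64 to 0.43.

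In the clamp group the clamp itself and its loader's large subunit lay on opposite sides before adjustment. PCNA, which tethers polymerases to DNA, had 28858 counts (875.9 CPM) untreated and 35720 counts (695.3 CPM) treated, a log2 ratio of -0.33 (-0.36 to -0.31). RFC1, the largest subunit of the clamp loader, had 5667 counts (172.0 CPM) and 11504 counts (223.9 CPM), a log2 ratio of 0.38 (0.33 to 0.43). PCNA thus had 5.09 counts for each RFC1 count untreated and 3.11 treated. Adjusted for length and GC, PCNA was at -0.05 and RFC1 at 0.18, and with the length curve both were above 0, at 0.014 and 0.21. Of the small RFC subunits, RFC4, with 85.5 and 90.4 CPM, was at 0.08 (0.013 to 0.15), RFC5 at -0.06 (-0.13 to 0.020) and RFC2 at -0.18 (-0.22 to -0.14). RFC3 had 107.5 and 85.5 CPM, a log2 ratio of -0.33 (-0.40 to -0.27). DSCC1, a subunit of the alternative clamp loader that acts in sister chromatid cohesion, had 1449 and 2205 counts, a log2 ratio of -0.04 (-0.13 to 0.06). FEN1, the nuclease that trims Okazaki fragment flaps, was at -0.09 (-0.14 to -0.03). None of the 8 genes of this group passed the size rule, and their median was -0.07.

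The single-strand binding protein RPA showed unequal ratios in its 3 subunits. RPA1, the large DNA-binding subunit, had 14283 counts (433.5 CPM) untreated and 24158 counts (470.3 CPM) treated, a log2 ratio of 0.12 (0.09 to 0.15). RPA2 was at -0.05 (-0.10 to -0.0076). RPA3, the smallest subunit, had 972 counts (29.5 CPM) and 973 counts (18.9 CPM), which is 1.56-fold lower (1.42 to 1.70). RPA3 made up 4.48% (4.21 to 4.77) of RPA counts untreated and 2.80% (2.63 to 2.98) treated. RPA3 was no longer past the size rule with total counts (-0.57), the length curve (-0.49) or the adjustment for length and GC (-0.27). With the adjustment for length and GC the spread between the RPA subunits was 0.38 on the log2 scale, in place of 0.76. The length curve left RPA3 further from the others, with RPA1 at -0.015, RPA2 at 0.17 and RPA3 at -0.49. The fork protection partners TIMELESS and TIPIN lay on opposite sides before adjustment. TIMELESS had 125.1 and 160.6 CPM, a log2 ratio of 0.36 (0.31 to 0.41), and TIPIN had 36.3 and 31.6 CPM, a log2 ratio of -0.20 (-0.31 to -0.09). Adjusted for length and GC their order turned, with TIMELESS at -0.0097 and TIPIN at 0.06. With the length curve it did not, with TIMELESS at 0.17 and TIPIN at 0.023. WDHD1, which links the helicase to polymerase alpha, had 42.9 and 46.8 CPM and was at 0.12 (0.03 to 0.22). The median of these 6 genes was 0.03, with 0 higher and 1 lower by the size rule.

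**Figure D3:**
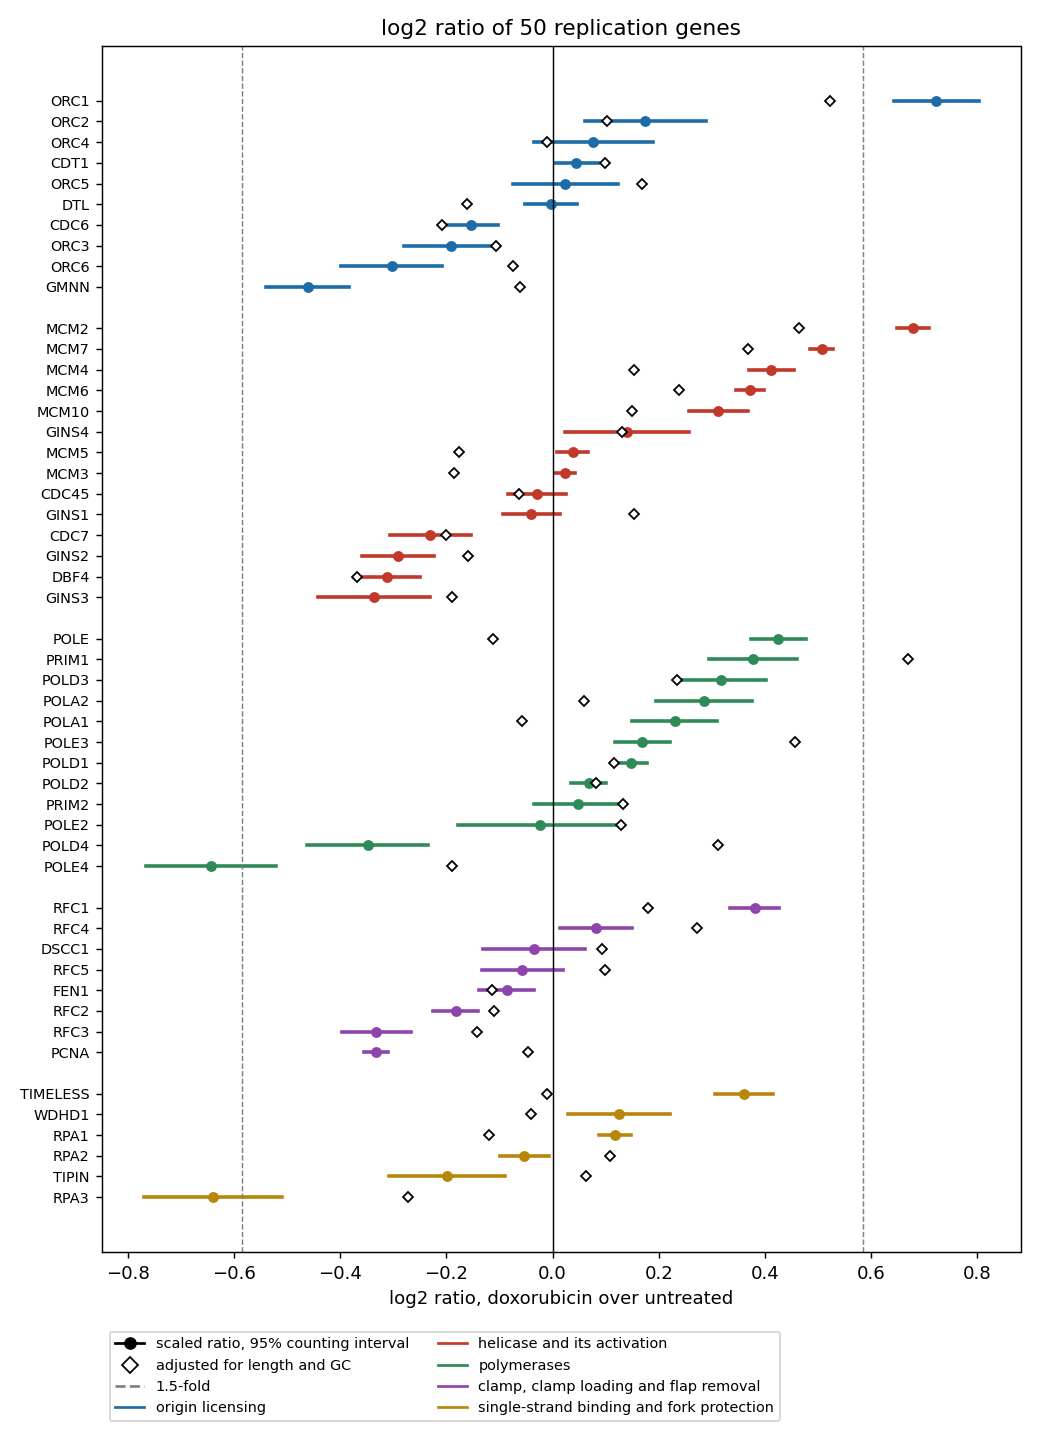
The log2 ratio of each gene with its exact 95% counting interval (filled circle and line), and the value adjusted for length and GC (open diamond), from 1 library per condition. ORC1 and MCM2 lie beyond the dashed 1.5-fold line on the right and POLE4 and RPA3 on the left before adjustment, and of these diamonds only PRIM1 lies beyond it.

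The subunits on the lower side tend to have short transcripts and those on the higher side long ones. Across the 50 genes, which share both libraries and are not independent, Spearman's rho between the log2 ratio and the transcript length was 0.59 (Pearson's r 0.56 with log2 length). Across 11209 measured genes with a length it was 0.54, so the relation is that of the table as a whole. The 10 shortest transcripts (918 to 1744 bases) had a median log2 ratio of -0.25, and 2 of them, PRIM1 and RFC4, were above 0. The 10 longest (4183 to 7840 bases) had a median of 0.20, and 9 were above 0, with DTL at -0.0037.

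**Figure D4:**
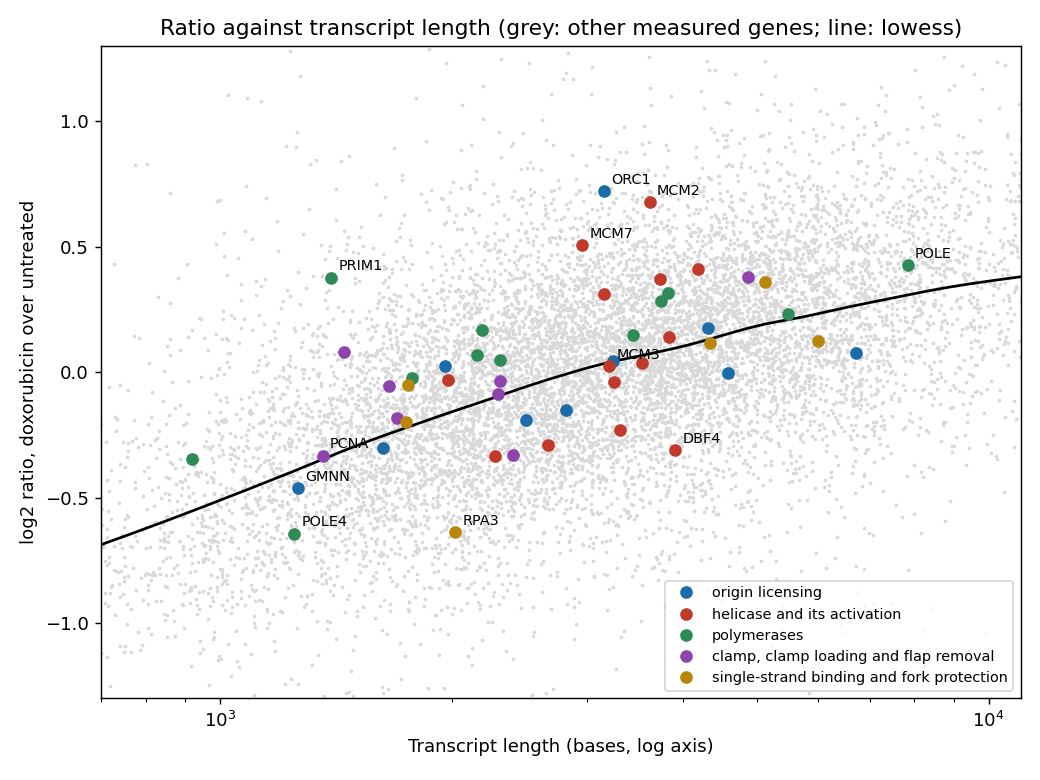
The log2 ratio against transcript length in bases (log axis) for the 50 genes, coloured by role, with other measured genes within the plotted range in grey and a lowess curve through all measured genes. Short genes such as POLE4, GMNN and PCNA lie low and long ones such as POLE lie high. GMNN and PCNA lie close to the curve, while ORC1, MCM2, MCM7 and PRIM1 lie above it and DBF4, RPA3 and POLE4 below it.

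With splines for the lengths of transcript and coding sequence and for GC content, fitted over 11193 genes, the ratios drew together. The interquartile range of the 50 genes became -0.11 to 0.15, and their median 0.06, beside -0.0080 for all genes. By the 1.5-fold rule 1 gene, PRIM1, was then higher at 0.67 and 0 were lower, against 4.29% and 3.54% of all genes. Stretches that also occur in other genes made up 29.6% of PRIM1, so its counts are less certain. At the smaller limit of 0.32 PRIM1, ORC1 (0.52), MCM2 (0.46), POLE3 (0.46) and MCM7 (0.37) were higher and DBF4 (-0.37) was lower, against 13.0% and 13.2%. POLE4 and RPA3 were at -0.19 and -0.27, GMNN was at -0.06 and PCNA at -0.05. POLE, with the longest transcript of the set, turned from 0.43 to -0.11, and POLD4, with the shortest, from -0.35 to 0.31. With a lowess curve on transcript length alone ORC1 (0.69), MCM2 (0.61) and PRIM1 (0.71) were higher and 0 genes were lower, against 5.07% and 4.74%. At the smaller limit this curve left 5 higher, the same 3 with MCM7 (0.50) and RFC4 (0.39), and 2 lower, RPA3 (-0.49) and DBF4 (-0.41), against 15.6% and 15.2%. On this curve POLE stayed above 0, at 0.12, and POLD4 was at 0.21. On a curve for the longest transcript of each gene, POLE was at 0.13 and POLD4 at -0.019.

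Levels between genes were compared as CPM per kilobase of transcript. In the untreated library PCNA was at 644.5 CPM per kilobase, the 99.2 percentile of measured genes, followed by MCM3 at 350.3, MCM7 at 252.5 and POLD2 at 167.2. The lowest were ORC4 at 4.77 CPM per kilobase, ORC2 at 6.94, WDHD1 at 7.15 and GINS4 at 7.48. ORC4 was divided by an annotated transcript of 6710 bases, and in CPM, at 32.0, it was above ORC2 at 29.9. Which transcripts these cells use was not tested, so the order by kilobase rests on the annotation. The median gene of the set was at 37.3 CPM per kilobase, and the median measured gene at 11.9. Within ORC the untreated order ran from ORC6 at 30.3 CPM per kilobase through ORC3 at 22.0, ORC5 at 20.9 and ORC1 at 16.9 to ORC2 and ORC4. In the treated library ORC1 was at 27.9 CPM per kilobase and the highest of the 6.

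Another 49 genes that work with this machinery were read in the same way, and all were measured. By the size rule 4 were higher and 3 lower, a share near the 7.26% and 9.57% of all measured genes. Their median log2 ratio was 0.14, and -0.0036 after adjustment for length and GC. UBXN7, an adaptor of the p97 segregase that takes helicases off DNA, had 688 counts untreated and 2074 treated, 1.93-fold higher (1.77 to 2.11). CHTF8, of the alternative clamp loader to which DSCC1 belongs, was 1.71-fold higher (1.63 to 1.79), and 16.5% of it also occurs in other genes. DDB1, the adaptor through which DTL binds the CUL4 ligase, was 1.53-fold higher (1.49 to 1.58), and ATAD5, which unloads PCNA, was 1.51-fold higher (1.44 to 1.59). The lower genes were CINP, a CDK2-interacting protein, at 1.61-fold, ASF1A, a histone chaperone, at 1.57-fold (1.52 to 1.62), and RBX1, the RING subunit of cullin ligases, at 1.53-fold (1.44 to 1.62). CINP had 1542 and 1492 counts and has 25.8% of its exons overlapped by another gene. After adjustment for length and GC only UBXN7 (0.72) and CHTF8 (0.97) of these 7 were past the size rule. With the length curve only CHTF8 (0.77) was past it, and UBXN7, at 0.58, fell just short.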

How the data were processed

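The authors deposited raw read counts per gene symbol, whole numbers with no scaling or length correction. The submitters' processing notes name HISAT2, featureCounts and hg19. No source used here gives versions, annotation, strand setting or the handling of multi-mapping reads. From these counts, TMM sizes (edgeR 4.0.16, R 4.3.3), log2 ratios and exact binomial intervals were computed, with Wald limits for differences between genes. Lengths, GC content, exon overlap with other protein-coding genes on either strand, and stretches of 50 bases (every 25) found in other genes came from GENCODE 29, built on another assembly. The transcript was the RefSeq-paired principal isoform, and genes with 10% or more are marked. Adjustments used a lowess span of 0.3 or splines with 5 knots. DESeq2 1.42.0 gave other size factors. The members and lists were chosen with earlier results of these data known. Named were members past the size rule, the 2 highest, 2 lowest and extreme counts of each role, and other subunits of their complexes. Of the partner genes, those past the size rule and the 3 at each end were named. The functions were tested on simulated data. PCR copies cannot be told from separate molecules, so intervals and limits cover counting error only.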

Additional observations from a re-analysis of the deposited data

How the results depend on the processing

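Of the 50 genes, 2 were higher and 2 lower by the 1.5-fold rule. Total counts gave 0 lower members and 1 lower partner gene in place of 3. The lowess curve on transcript length, and one on the longest transcript (added after seeing the data), gave 0 lower, and the splines 1 higher and 0 lower. Leaving out the 11 genes with shared sequence gave 1 higher. A limit of 0.32 on the log2 scale gave 9 and 7, and a limit of 2-fold gave 0 and 0. DESeq2 size factors, other count minimums (20 and 500), an added count of 5 and a 99% interval kept both counts within 1.5 times. The medians of the roles lay near 0, and several changed sign. Licensing went from 0.01 to -0.06 with lowess and -0.04 with splines, the clamp group from -0.07 to 0.055 and 0.023, and fork protection from 0.03 to -0.025 with splines. Without the genes with shared sequence the median of the members, and that of licensing, was -0.0037. Those of the helicase and polymerase genes stayed above 0 under every alternative run. Total counts changed the sign of 7 members and the splines that of 15. No paired analysis was possible because each condition has 1 library.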
